A study of Mus musculus with 14 samples.

Results

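Oxidative phosphorylation subunit genes were followed in BCR-ABL-transduced mouse leukemic stem cells (LSCs). The genes were chosen by symbol: those that start with Nduf, Uqcr, Cox4, Cox5, Cox6, Cox7, Cox8 or Atp5, and Sdha, Sdhb, Sdhc and Sdhd, without pseudogenes. Of 24463 genes listed, 92 matched, and 87 had a mean of at least 1 FPKM (fragments counted per length of the gene model and per sequencing depth) over the 14 libraries. These 87 were 36 subunits of complex I, 4 of complex II, 8 of complex III, 16 of complex IV, 14 of complex V and 9 assembly factors that carry the same prefixes. Expression alone was used for that limit, but a gene can pass it through the groups where it is high.

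All 14 libraries came from lineage-negative bone marrow cells transduced with p210 BCR-ABL, the fusion kinase of chronic myeloid leukemia, and sorted for c-Kit, Sca1 and GFP. Untreated cells were from Tcf1/Lef1-deficient marrow (dKO, n = 3) or from control marrow (WT, n = 3). Control LSCs were treated for 6 h with 20 µM prostaglandin E1 (PGE1, n = 3), 20 µM prostaglandin E2 (PGE2, n = 2) or the vehicle (DMSO, n = 3). The sources used here do not give age, strain, pooling of mice or the way Tcf7 and Lef1 were deleted. Nothing says that replicates came from separate mice, so the p-values set group differences only against the spread of these libraries. That spread may be technical. All groups share the transduction, the GFP gate and a culture of 48 h in IMDM with 15% serum, stem cell factor at 50 ng/ml and thrombopoietin at 20 ng/ml. Tcf7, which encodes Tcf1, lay at 0.142, 0.0219 and 0.135 FPKM in dKO, against 1.48, 1.15 and 1.3 FPKM in WT, and this goes with the sample titles, from which the groups were taken. Lef1 was low in both genotypes, at 0.184, 0.105 and 0.165 FPKM in dKO, against 0.319, 0.307 and 0.223 FPKM in WT, too low to test, so these levels do not by themselves show its loss. In 2 libraries, dKO replicate 1 and DMSO replicate 1, the genotype field and the title disagree. Tcf7 lay at 1.03 FPKM in DMSO replicate 1 and at 0.85 and 1.53 FPKM in the other DMSO libraries, which also goes with the title.

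Oxidative phosphorylation takes electrons from NADH at complex I and from succinate at complex II, passes them through complex III and cytochrome c to oxygen at complex IV, and pumps protons at complexes I, III and IV. Complex V, the ATP synthase, makes ATP as the protons flow back. Most subunits are nuclear genes, but core subunits of complexes I, III, IV and V are encoded in mitochondrial DNA, and these are not analysed here. As background, quiescent blood stem cells are known to rely much on glycolysis, and leukemic stem cells are often described as relying on oxidative phosphorylation.

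The genes were among the well expressed ones. FPKM is per length, so levels can be compared between genes, but only roughly. Shifts that run with gene-model length and reads shared with copies, both described below, may remain. The mean level over 14 libraries had a median of 60.3 FPKM over the 87 genes, and together they held 2.93% ± 0.013 of summed FPKM in WT (SD, n = 3). Atp5b, the catalytic beta subunit of the F1 head of complex V, was highest at 538 FPKM (rank 33 of all genes listed). Cox4i1, the broadly expressed form of complex IV subunit 4, followed at 398 FPKM, and Atp5a1, the alpha subunit of F1, at 307 FPKM. The lowest were Cox4i2 at 2.21 FPKM, Atp5s at 2.38 FPKM and Cox7a1 at 2.94 FPKM. Below the limit of 1 FPKM lay Atp5g2, the nearest to it, at 0.662 FPKM, Ndufa4l2 at 0.254 FPKM and Cox8b at 0.0122 FPKM (2 reads in all), while Cox7b2 and Cox8c had no read in any library. By complex, the median gene had 58.1 FPKM in complex I, 70.8 in complex II, 79.7 in complex III, 67.4 in complex IV and 95 in complex V, but 7.55 FPKM among the assembly factors, which act on the complexes without staying in them.

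Some levels are uncertain because reads may be shared with pseudogene copies. Nearly identical pseudogene copies (at least 95% identity over at least 100 bases, searched in GENCODE transcripts of a later build) were found for 19 of the 87 genes. The 68 genes with no pseudogene copy had a median of 67.2 FPKM, the 18 with 1 to 4 copies had 36.7 FPKM, and Atp5l, with 9 copies, had 14.1 FPKM. Some of the 68 matched genes not classed as pseudogenes in the same search, Ndufaf7 with 67 and Cox4i1 and Atp5a1 with 1 each. The sources used here do not say how reads shared between copies were assigned. Whether the copies changed the levels was not tested. Among genes named here, Atp5c1, Atp5g1, Cox7a2l, Ndufa12, Ndufb3 and Ndufs5 have 1 copy each, Uqcr11, Cox7b, Ndufab1 and Ndufb4 have 2, Uqcrb has 3 and Cox7c has 4. Atp5g2, below the limit of 1 FPKM, has 2 copies as well, so its low level shares this uncertainty.

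Library depth was 31268116 to 33813809 reads in untreated cells and 19042213 to 22708474 reads in treated cells, from whole reads recovered from the FPKM steps. Within groups, 2 libraries stood apart. DMSO replicate 1 was above the mean of the other DMSO libraries in 85 of 87 genes (median log2 difference 0.23), and PGE1 replicate 2 was above the other PGE1 libraries in 76 of 87 (0.31). The shift ran with gene-model length over all genes: genes of up to 1000 bases were shifted by 0.19 in DMSO replicate 1 and 0.27 in PGE1 replicate 2, and genes over 2500 bases by -0.05 and -0.07. The oxidative phosphorylation genes are short, with a median of 744 bases against 2653 for all genes of at least 1 FPKM, and 56 of the 87 do not exceed 1000 bases. Counts in treated cells are therefore given also without both libraries and with the length trend removed, settings chosen after seeing the data.

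**Figure D1:**
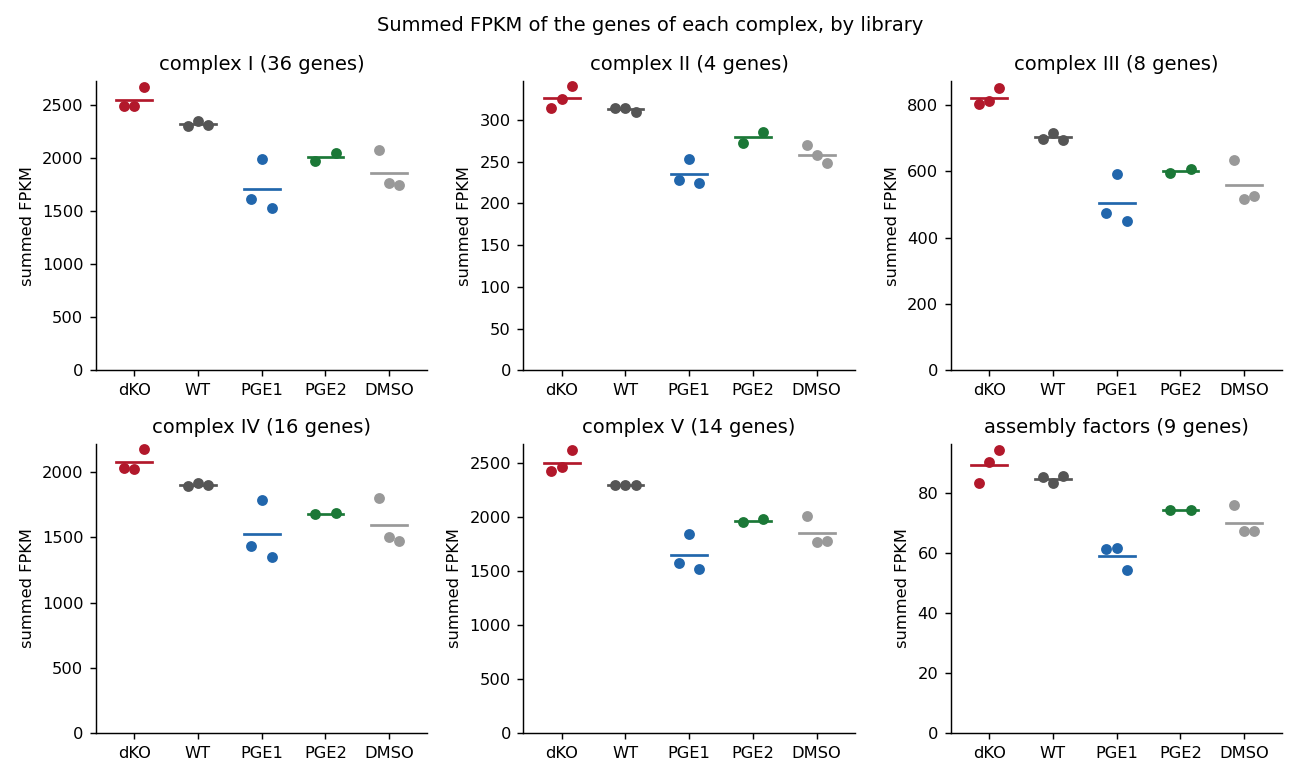
Summed FPKM (y axis, from 0) of the genes of each complex and of the assembly factors, with 1 point per library and a bar at the group mean for dKO, WT, PGE1, PGE2 and DMSO. The 3 dKO points of complex III (803 to 853) lie above the 3 WT points (695 to 717), while 1 PGE1 point (591) and 1 DMSO point (636) stand above the others of their groups.

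Promoter windows of genes that the results turn on are shown to let the promoter elements of this gene class be seen. RefSeq promoter windows (GRCm38.p6, 250 bases before to 50 after the gene start) matched 73 of the 87 genes with 79 windows. Nuclear respiratory factor 1 (NRF1), ETS factors such as GABPA, YY1 and CREB are known regulators of nuclear genes for mitochondria. The NRF1 letters GCGCANGCG, on either strand, were in 27.8% of the windows, against 6.25% of all 32851 windows. The ETS letters CCGGAAG were in 21.5% against 8.86%, the YY1 letters AAGATGGC in 15.2% against 2.75%, and the CREB letters TGACGTCA in 5.06% against 1.79%. A match is a description of these letters, not a bound site. In the windows that follow, written 5' to 3' in the direction of the gene, capitals mark NRF1 letters in Ndufaf4 (bases 138 to 147, overlapping matches on both strands), in Uqcrc1 (bases 257 to 265 and 281 to 290) and in Uqcr11 (bases 246 to 254), and ETS letters in Uqcr11 (bases 185 to 191). Atp5b, the most abundant of the genes, held none of the 4 motifs in its window and has no capitals.
Ndufaf4, chr4:24897833-24898132, plus strand: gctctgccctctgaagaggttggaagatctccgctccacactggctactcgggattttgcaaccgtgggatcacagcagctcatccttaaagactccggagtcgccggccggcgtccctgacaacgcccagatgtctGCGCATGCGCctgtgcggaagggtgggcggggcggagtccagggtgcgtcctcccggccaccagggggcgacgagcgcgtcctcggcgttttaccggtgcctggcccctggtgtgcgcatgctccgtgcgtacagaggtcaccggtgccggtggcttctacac
Uqcrc1, chr9:108936398-108936697, plus strand: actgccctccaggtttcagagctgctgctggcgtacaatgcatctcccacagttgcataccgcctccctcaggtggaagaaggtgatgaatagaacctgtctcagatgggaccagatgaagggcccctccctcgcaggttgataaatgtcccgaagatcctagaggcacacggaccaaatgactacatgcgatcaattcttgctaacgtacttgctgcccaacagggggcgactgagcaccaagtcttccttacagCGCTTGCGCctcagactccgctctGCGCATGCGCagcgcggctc
Uqcr11, chr10:80406772-80407071, minus strand: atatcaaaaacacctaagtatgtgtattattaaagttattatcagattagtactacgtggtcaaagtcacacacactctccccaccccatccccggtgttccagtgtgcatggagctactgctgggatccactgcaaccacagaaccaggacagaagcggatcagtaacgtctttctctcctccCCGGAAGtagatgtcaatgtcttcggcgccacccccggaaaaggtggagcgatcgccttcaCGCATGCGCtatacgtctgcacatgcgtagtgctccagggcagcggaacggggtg
Atp5b, chr10:128083057-128083356, plus strand: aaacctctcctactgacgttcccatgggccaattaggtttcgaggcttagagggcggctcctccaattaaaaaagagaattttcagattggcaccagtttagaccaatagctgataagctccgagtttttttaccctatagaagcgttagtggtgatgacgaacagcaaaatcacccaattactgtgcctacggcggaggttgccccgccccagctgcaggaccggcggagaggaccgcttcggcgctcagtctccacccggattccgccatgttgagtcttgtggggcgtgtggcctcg

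In LSCs labelled as Tcf1/Lef1-deficient, many of the genes were modestly higher than in WT, among them 7 of the 8 in complex III. Of 87 genes, 27 rose in dKO and 1 fell (limma on log2(FPKM + 1), adjusted p under 0.05 over 10721 genes), which is 31.0% and 1.15% of them. Over all genes tested, 18.0% were higher and 22.9% lower in dKO. The median log2 difference was 0.11 over the 87 genes and -0.01 over all genes tested. The summed level was 8148, 8202 and 8755 FPKM in dKO, against 7582, 7675 and 7597 FPKM in WT, so the groups did not overlap. These are bulk libraries, in which fewer cells of a type and less RNA per cell cannot be told apart.

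Complex III, ubiquinol-cytochrome c reductase, had 7 of its 8 measured subunits higher in dKO, with a median log2 difference of 0.21. Uqcrc1, a core protein of the matrix side, had 132, 149.9 and 154 FPKM in dKO, against 117, 109 and 113 FPKM in WT. All dKO libraries were above all WT libraries, and the log2 difference was 0.36 ± 0.06 (SE, adjusted p = 0.00291). Uqcrq, a small subunit that helps to hold cytochrome b, had 113, 106 and 112 FPKM in dKO, against 86.7, 88.8 and 87.7 FPKM in WT (log2 difference 0.33 ± 0.04, adjusted p = 0.000395). Uqcr11, the smallest subunit, had 102, 109 and 109 FPKM in dKO, against 90.3, 92.5 and 88.3 FPKM in WT (0.23 ± 0.04, adjusted p = 0.00307). In each of them the groups were apart. Uqcrb, Uqcrfs1 (the Rieske iron-sulphur protein), Uqcrc2 (the second core protein) and Uqcr10 rose by 0.21, 0.20, 0.17 and 0.14 on the log2 scale. Uqcrh, the hinge protein that contacts cytochrome c1, had 94.4, 87.8 and 103 FPKM in dKO, against 85.8, 91.1 and 84.3 FPKM in WT, where the groups overlap (adjusted p = 0.143). Cyc1, the cytochrome c1 of the same complex, lies outside the symbol rule and averaged 138 ± 13.3 FPKM in dKO and 119 ± 1.02 FPKM in WT (SD, n = 3 each; adjusted p = 0.0399).

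Complex I, NADH dehydrogenase, had 10 of 36 subunits higher in dKO and none lower, 1 of them among the 7 core subunits (Ndufs7) and 9 among the 29 accessory ones. Ndufv3, an accessory subunit of the NADH-oxidising module, had 143, 117 and 127 FPKM in dKO, against 94.4, 96.6 and 103 FPKM in WT (log2 difference 0.39 ± 0.07, adjusted p = 0.00492). Ndufc2, an accessory subunit of the membrane arm, had 134, 136 and 154 FPKM in dKO, against 114, 119 and 114 FPKM in WT (0.28 ± 0.06, adjusted p = 0.00673). Both genes separated the groups fully. The other 8 differences lay between 0.14 for Ndufa3 and 0.22 for Ndufb6.

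Complex II, succinate dehydrogenase, is the only complex with all its subunits in the nucleus, and 1 of its 4 genes rose in dKO. Sdhd, a membrane anchor, had 101, 103 and 111 FPKM in dKO, against 91.8, 94.1 and 89.2 FPKM in WT (log2 difference 0.19 ± 0.05, adjusted p = 0.0126). Sdha, the flavoprotein, had 92.4, 95.7 and 99.4 FPKM in dKO, against 92.2, 92.9 and 92.3 FPKM in WT (adjusted p = 0.31). Sdhb, the iron-sulphur subunit, had 58.0, 62.0 and 64.9 FPKM in dKO, against 64.0, 65.6 and 67.0 FPKM in WT (adjusted p = 0.169). Sdhc, the other anchor, averaged 64.0 ± 1.56 FPKM in dKO and 63.4 ± 3.24 FPKM in WT (SD, n = 3 each; 95% interval of the log2 difference -0.09 to 0.12).

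Of complex IV, cytochrome c oxidase, 6 of 16 genes rose in dKO and 1 fell. Cox7a2, the broadly expressed form of subunit 7a, had 93.7, 95.9 and 101 FPKM in dKO, against 82.7, 82.9 and 81.7 FPKM in WT (log2 difference 0.23 ± 0.04, adjusted p = 0.00272). Cox7a1, its heart and muscle form, had 3.58, 2.18 and 2.64 FPKM in dKO, against 1.76, 1.96 and 1.32 FPKM in WT (0.50 ± 0.15, adjusted p = 0.0301), and the libraries did not overlap. It no longer passed when WT replicate 1 (adjusted p = 0.0681), WT replicate 3 (0.1) or dKO replicate 3 (0.0646) was left out, and voom on recovered reads gave 0.0822. Cox6b2, known as the testis form of subunit 6b, was the 1 gene that fell, with 11.9, 13.3 and 9.32 FPKM in dKO, against 14.4, 16.8 and 17.2 FPKM in WT (-0.46 ± 0.12, adjusted p = 0.0184). Leaving out WT replicate 2 (adjusted p = 0.0663) or WT replicate 3 (0.0661) ended that call. Cox4i1, Cox5b, Cox6a1 and Cox8a rose by 0.13 to 0.17.

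Of complex V, 3 of 14 genes rose in dKO, or 21.4%, against 18.0% of all genes tested. Atp5g1, which encodes the c subunit of the rotor ring, had 19.1, 21.8 and 23.1 FPKM in dKO, against 17.8, 16.0 and 16.0 FPKM in WT (log2 difference 0.34 ± 0.07, adjusted p = 0.00907). Atp5b had 674, 678 and 730.2 FPKM in dKO, against 593, 595 and 598 FPKM in WT (0.22 ± 0.04, adjusted p = 0.00518). Atp5a1 averaged 372 ± 16.4 FPKM in dKO and 340.1 ± 3.82 FPKM in WT (SD, n = 3 each; adjusted p = 0.0395). The dKO libraries were above the WT libraries in all of these. None of the 9 assembly factors passed, with a median log2 difference of 0.04.

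**Figure D2:**
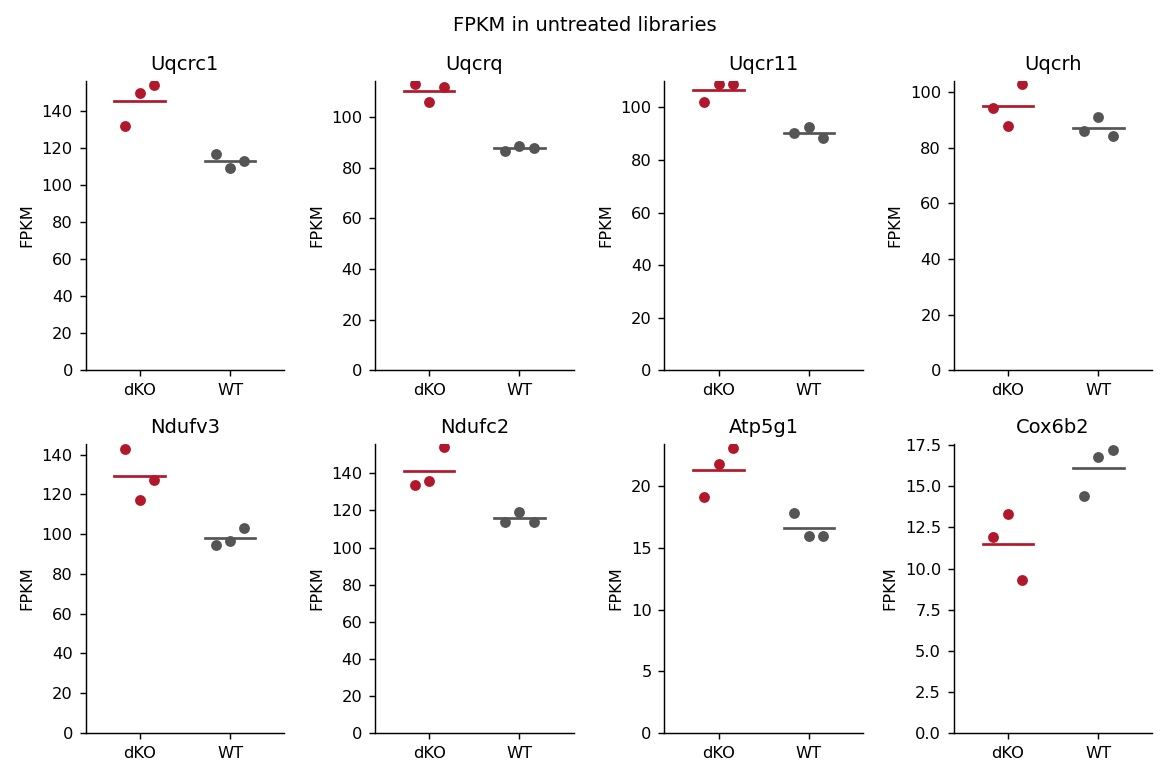
FPKM (y axes, from 0) of 8 genes in the 3 dKO and 3 WT libraries, with 1 point per library and a bar at each group mean. All dKO points are above the WT points for Uqcrc1, Uqcrq, Uqcr11, Ndufv3, Ndufc2 and Atp5g1, the groups overlap for Uqcrh, and dKO is the lower group for Cox6b2.

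The number of genes called higher in dKO moves with the libraries and the scaling. Leaving out a library can also change the share of all genes called, which is not given for those fits. It was 13 without WT replicate 1, 13 without WT replicate 3, 17 without dKO replicate 3 and 46 without dKO replicate 1, and 18 with the length trend removed. Over all settings tried, complex I had 5 to 22 of 36 genes higher, complex II 0 to 1 of 4, complex III 4 to 7 of 8, complex IV 1 to 9 of 16, complex V 2 to 7 of 14 and the assembly factors 0 to 2 of 9. Over all genes tested, 44.1% of the calls were higher ones with FPKM as deposited. That share was 56.1% with median-of-ratios scaling (44 of the 87 genes higher, 1 lower) and 60.2% with quantile normalization (20 higher, 4 lower). With median-of-ratios scaling 25.2% of all genes tested were higher. The median log2 difference was then 0.15 over the 87 genes and 0.03 over all genes. With quantile normalization 26.0% of all genes tested were higher, and these medians were 0.05 and 0.06. Under that scaling the 87 genes did not stand above all genes. Markers of other blood cells also moved. All 6 monocyte markers fell in dKO, with a summed level of 93.6 to 105 FPKM in dKO against 729 to 769 FPKM in WT, and none at 0. Of 6 neutrophil markers 5 fell and 1 rose (sums of 936 to 1296 in dKO and 985 to 1003 in WT, none at 0), and all 4 megakaryocyte markers fell (44.7 to 89.1 in dKO and 183 to 204 in WT, none at 0). Erythroid markers summed to 5.45 to 6.78 FPKM in dKO and 12.4 to 13.3 in WT, with none at 0. Of 3 tested, 2 were lower in dKO. Lymphoid ones summed to 88.4 to 91.1 in dKO and 68.7 to 70.5 in WT, with 1 of 2 tested higher. Cd3e, Cd3g and Ms4a1 were at 0 in dKO. Nearly all of the lymphoid sum was Nkg7, the marker that rose (means of 87.3 FPKM in dKO and 67.3 FPKM in WT). Most of the neutrophil sum was S100a8, the 1 that rose (means of 853 FPKM in dKO and 608 FPKM in WT). The sorted markers Kit, Ly6a (Sca1) and Cd34 were present in every library and lower in dKO, Ly6a at 2.97, 2.86 and 3.53 FPKM in dKO, against 12.6, 10.9 and 10.4 FPKM in WT. The part of these cell markers in the result was not tested.

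After PGE1 the genes were lower than after the vehicle on balance. By log2 difference, the largest falls were those of the complex I assembly factor Ndufaf4, the complex IV isoform Cox4i2 and the assembly factor Ndufaf6. Of 87 genes, 23 fell and 2 rose (limma, adjusted p under 0.05 over 11242 genes), or 26.4% and 2.3% of them. Over all genes tested, 25.5% were lower and 23.6% higher after PGE1, so the share that fell is near the background, while the share that rose is below it. The median log2 difference was -0.17 over the 87 genes and 0.01 over all genes tested. The summed level was 5382, 6527 and 5114 FPKM after PGE1, against 6867, 5873 and 5835 FPKM after DMSO, and the groups overlap through PGE1 replicate 2 and DMSO replicate 1. The number that fell was 48 without PGE1 replicate 2, 12 without DMSO replicate 1, 13 without PGE1 replicate 1 and 11 without PGE1 replicate 3. The matching shares of all genes tested are not given, so these counts do not show how far the 87 genes stood apart. Without both libraries that stood apart 46 fell and 5 rose, against 27.7% lower and 25.8% higher of all genes tested. With the length trend removed 33 fell and 9 rose (29.1% lower and 28.3% higher of all genes). With quantile normalization 26 fell and 6 rose, again without a share of all genes given.

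Of the 9 assembly factors, 4 fell after PGE1. All 4 act on complex I, but most of the 9 are Ndufaf genes, so this follows largely from the symbol rule. Ndufaf4, needed early for the ubiquinone-binding module, had 2.42, 1.43 and 1.7 FPKM after PGE1, against 6.04, 5.49 and 5.51 FPKM after DMSO. The groups were far apart, with a mean 3.07-fold higher after DMSO and a log2 difference of -1.24 ± 0.12 (SE, adjusted p = 7.23e-05). Ndufaf6, another factor of that module, had 5.39, 3.04 and 3.3 FPKM after PGE1, against 7.17, 6.85 and 6.32 FPKM after DMSO (-0.69 ± 0.16, adjusted p = 0.00651). Ndufaf2, a paralog of the subunit Ndufa12 whose place it holds during assembly, had 12.6, 10.5 and 9.87 FPKM after PGE1, against 16.9, 15.1 and 15.7 FPKM after DMSO (-0.50 ± 0.1, adjusted p = 0.00252). Neither gene overlapped between the groups. Ndufaf5, which hydroxylates an arginine of Ndufs7, averaged 1.93 ± 0.192 FPKM after PGE1 and 2.85 ± 0.314 FPKM after DMSO (SD, n = 3 each; adjusted p = 0.0121). The first 3 of these passed in every alternative tried in which they were tested, with a highest adjusted p of 0.0453 for Ndufaf6. Ndufaf4 carries the longest gene model of the 87, at 3632 bases.

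Complex I itself had 9 of 36 subunits lower after PGE1 and none higher, 8 of them accessory and 1 core (Ndufs1). The share that fell, 25.0%, is near the 25.5% of all genes tested, of which 23.6% rose. Ndufa12, the accessory subunit that replaces Ndufaf2, had 25.4, 23.5 and 20.0 FPKM after PGE1, against 37.2, 31.9 and 30.8 FPKM after DMSO (log2 difference -0.52 ± 0.1, adjusted p = 0.00309). Ndufc1, of the membrane arm, had 28.9, 30.8 and 27.5 FPKM after PGE1, against 51.5, 38.9 and 36.3 FPKM after DMSO (-0.51 ± 0.12, adjusted p = 0.007). The groups did not overlap in either. Ndufb4, also of the membrane arm, had 2.8, 2.71 and 3.14 FPKM after PGE1, against 5.11, 3.98 and 4.22 FPKM after DMSO (-0.48 ± 0.14, adjusted p = 0.0187). It no longer passed without DMSO replicate 1 (adjusted p = 0.069), without both libraries that stood apart (0.107), with the length trend removed (0.0501) or with voom (0.0671). The others, Ndufab1, Ndufb3, Ndufb6, Ndufb8, Ndufs1 and Ndufs5, fell by 0.21 to 0.40 on the log2 scale.

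Complexes II to V each held a few genes that fell. They were 2 of 4 in complex II and 2 of 8 in complex III (25.0%). In complex IV they were 3 of 16 (18.8%) and in complex V 3 of 14 (21.4%). Over all genes tested 25.5% fell, so the shares of complexes III, IV and V did not exceed the background. Sdha had 67.6, 63.2 and 63.3 FPKM after PGE1, against 76.4, 76.0 and 73.5 FPKM after DMSO (log2 difference -0.22 ± 0.06, adjusted p = 0.0134). Sdhc had 39.0, 47.5 and 36.8 FPKM after PGE1, against 54.7, 50.7 and 49.2 FPKM after DMSO (-0.33 ± 0.1, adjusted p = 0.0221), so both genes separated the groups. Sdhb averaged 54.1 ± 3.35 FPKM after PGE1 and 58.1 ± 3.77 FPKM after DMSO, and Sdhd averaged 75.3 ± 9.23 FPKM after PGE1 and 73.7 ± 3.04 FPKM after DMSO (SD, n = 3 each), with limma's adjusted p of 0.262 for Sdhb and 0.842 for Sdhd. In complex III, Uqcr11 and Uqcrc1 fell by 0.42 and 0.35. In complex V, Atp5g1 had 9.65, 8.02 and 7.56 FPKM after PGE1, against 12.5, 12.1 and 10.3 FPKM after DMSO (-0.43 ± 0.1, adjusted p = 0.00756), and Atp5c1 (the gamma stalk) and Atp5b fell by 0.27 and 0.24.

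Complex IV held the genes that went the other way. Cox6b2 had 17.2, 23.6 and 16.7 FPKM after PGE1, against 14.6, 10.1 and 12.1 FPKM after DMSO (log2 difference 0.61 ± 0.15, adjusted p = 0.00995). Cox7a2l, also known as SCAF1, a factor that joins complexes III and IV into supercomplexes, had 42.4, 48.0 and 42.4 FPKM after PGE1, against 38.5, 33.1 and 33.0 FPKM after DMSO (0.34 ± 0.08, adjusted p = 0.00776). Every PGE1 library was above every DMSO library for both. Cox4i2, the lung-enriched and hypoxia-responsive form of subunit 4, had 1.13, 0.634 and 0.785 FPKM after PGE1, against 3.19, 1.88 and 2.25 FPKM after DMSO (-0.89 ± 0.17, adjusted p = 0.00238), from as few as 9 reads in a library. Cox4i2 averaged 0.848 FPKM after PGE1, under the limit of 1 FPKM that it passed through the other groups. Cox5a and Cox7b fell by 0.33 and 0.35. Cox4i1 averaged 375 ± 57.0 FPKM after PGE1 and 372 ± 47.2 FPKM after DMSO (SD, n = 3 each; 95% interval of the log2 difference -0.29 to 0.30).

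Other markers moved after PGE1 as well. Of 6 monocyte markers 4 fell and 1 rose (sums of 547 to 698 FPKM after PGE1 and 728 to 868 after DMSO), and of 6 neutrophil markers 5 fell (644 to 972 after PGE1 and 988 to 1146 after DMSO). Megakaryocyte markers summed to 244 to 357 FPKM after PGE1 and 199 to 253 after DMSO with 1 of 4 higher, erythroid ones to 10.2 to 17.0 after PGE1 and 17.7 to 21.2 after DMSO with 2 higher and 1 lower of 3 tested. Lymphoid ones summed to 9.1 to 17.5 FPKM after PGE1 and 40.9 to 48.2 after DMSO. Nearly all of that sum was Nkg7, the 1 tested, which fell (10.4 ± 4.75 FPKM after PGE1 and 42.2 ± 3.99 FPKM after DMSO, SD, n = 3 each). The T cell markers Cd3e and Cd3g, too low to be tested, averaged 0.382 and 0.391 FPKM after PGE1, against 0.0431 and 0.0457 FPKM after DMSO, without overlap. Of the sorted markers, Kit was higher (42.2 ± 6.55 FPKM after PGE1 and 26.1 ± 2.5 FPKM after DMSO, adjusted p = 0.00142), Cd34 was lower (19.4 ± 0.821 FPKM after PGE1 and 40.9 ± 1.62 FPKM after DMSO, adjusted p = 4.81e-06), and Ly6a was not called. No marker was at 0 in every library of either group. Their part in the result was not tested.

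PGE2 gave no call among the genes at the same dose and time. With limma, 0 of 87 passed in either direction (lowest adjusted p of 0.0838), 2 were higher and 2 lower at an unadjusted p under 0.05, and voom on recovered reads called 0. Over all genes tested, 0.996% were higher and 4.57% lower after PGE2. The median log2 difference was 0.10 over the 87 genes and 0.00 over all genes, 70 of 87 had a positive difference, and half-widths of the 95% intervals had a median of 0.29. The summed level was 6544 and 6675 FPKM after PGE2, within the range of 5835 to 6867 FPKM after DMSO. Without both DMSO replicate 1 and PGE1 replicate 2, 18 genes were called higher and 1 lower after PGE2, against 6.15% and 9.58% of all genes tested.

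The genes nearest to a call after PGE2 were in complex IV. Cox6a2, the heart and muscle form of subunit 6a, had 5.09 and 5.58 FPKM after PGE2, against 3.73, 2.54 and 3.12 FPKM after DMSO (log2 difference 0.63 ± 0.18, adjusted p = 0.0891). Cox7a2l had 28.4 and 27.1 FPKM after PGE2, against 38.5, 33.1 and 33.0 FPKM after DMSO (-0.31 ± 0.09, adjusted p = 0.0838). The libraries of the groups did not overlap in these genes, but neither passed. Ndufaf4 had 6.93 and 7.35 FPKM after PGE2, against 6.04, 5.49 and 5.51 FPKM after DMSO (adjusted p = 0.28, 95% interval of the log2 difference -0.03 to 0.60). Sdha, Sdhb, Sdhc and Sdhd averaged 82.3, 58.2, 55.0 and 83.9 FPKM after PGE2 and 75.3, 58.1, 51.5 and 73.7 FPKM after DMSO, with adjusted p of 0.31 or more. Of the marker lists, 1 monocyte and 1 neutrophil marker were higher and none lower after PGE2. The other lists, the sorted markers among them, had no call. Monocyte markers summed to 953 to 962 FPKM after PGE2 and 728 to 868 after DMSO, and neutrophil markers to 1344 to 1352 after PGE2 and 988 to 1146 after DMSO.

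The 2 prostaglandins differ by a double bond in the carboxyl side chain, which PGE2 has and PGE1 lacks, and they were compared directly at 20 µM and 6 h. This is the 1 pair of compounds in the study. Of 87 genes, 36 were lower after PGE1 than after PGE2 and 2 higher, or 41.4% and 2.3%, against 26.7% lower and 27.2% higher over all genes tested. The median log2 difference was -0.25 over the 87 genes and 0.02 over all genes. The summed level was 5382, 6527 and 5114 FPKM after PGE1, against 6544 and 6675 FPKM after PGE2, so all PGE1 libraries were the lower ones, PGE1 replicate 2 by little. The lower calls numbered 59 without PGE1 replicate 2, 15 without PGE2 replicate 1 and 16 without PGE2 replicate 2, where the lone PGE2 library is assumed to vary like the other groups, and 65 without both libraries that stood apart. No share of all genes tested is given for these leave-out counts. The comparisons with DMSO and this one share libraries, so they are set side by side only.

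Ndufaf4 again differed most, with 2.42, 1.43 and 1.7 FPKM after PGE1, against 6.93 and 7.35 FPKM after PGE2 (log2 difference -1.53 ± 0.14, adjusted p = 4.54e-05). Ndufaf6 had 5.39, 3.04 and 3.3 FPKM after PGE1, against 7.53 and 8.41 FPKM after PGE2 (-0.90 ± 0.18, adjusted p = 0.00274), and Ndufaf2 averaged 11 ± 1.42 FPKM after PGE1 (n = 3) and 18.8 ± 1.77 FPKM after PGE2 (n = 2; SD; -0.73 ± 0.11, adjusted p = 0.000563). These assembly factors separated the compounds in every library. In complex I, 16 of 36 subunits were lower after PGE1 and none higher. Ndufa12 had 25.4, 23.5 and 20.0 FPKM after PGE1, against 36.4 and 40.4 FPKM after PGE2 (-0.72 ± 0.11, adjusted p = 0.00084), and Ndufc1 had 28.9, 30.8 and 27.5 FPKM after PGE1, against 44.4 and 47.7 FPKM after PGE2 (-0.65 ± 0.13, adjusted p = 0.00335). In complex V, 7 of 14 were lower, Atp5g1 with 9.65, 8.02 and 7.56 FPKM after PGE1, against 13.2 and 13.3 FPKM after PGE2 (-0.61 ± 0.11, adjusted p = 0.00194). Complexes II and III had 2 lower each (Sdha and Sdhc, Uqcr11 and Uqcrc1). For complex III this is 25.0%, against 26.7% of all genes tested. Sdhb and Sdhd were not called, with 95% intervals of the log2 difference of -0.29 to 0.07 and -0.39 to 0.08.

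Complex IV had 5 of 16 genes lower and 2 higher after PGE1 than after PGE2. These are 31.2% and 12.5%, against 26.7% and 27.2% of all genes tested. Cox7a2l had 42.4, 48.0 and 42.4 FPKM after PGE1, against 28.4 and 27.1 FPKM after PGE2 (log2 difference 0.65 ± 0.09, adjusted p = 0.000385). Cox6b2 had 17.2, 23.6 and 16.7 FPKM after PGE1, against 12.2 and 13 FPKM after PGE2 (0.55 ± 0.17, adjusted p = 0.0224), a call lost without PGE2 replicate 1 (0.116) or replicate 2 (0.0734). Cox4i2 had 1.13, 0.634 and 0.785 FPKM after PGE1, against 2.09 and 2.89 FPKM after PGE2 (-0.91 ± 0.19, adjusted p = 0.00319). All 3 had the compounds apart. Cox6a2 had 3.24, 3.81 and 2.17 FPKM after PGE1, against 5.09 and 5.58 FPKM after PGE2 (-0.66 ± 0.18, adjusted p = 0.0145), also lost without PGE2 replicate 1 (0.0532) or replicate 2 (0.0908). Cox4i1 was not called, with a 95% interval of the log2 difference of -0.32 to 0.33. Of the marker lists, 5 of 6 monocyte and 5 of 6 neutrophil markers and the lymphoid marker Nkg7 were lower after PGE1 than after PGE2. The erythroid markers Klf1 and Epor, the megakaryocyte marker Itga2b and the sorted marker Kit were higher after PGE1, and the sorted marker Cd34 was lower. The part of these markers in the result was not tested.

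**Figure D3:**
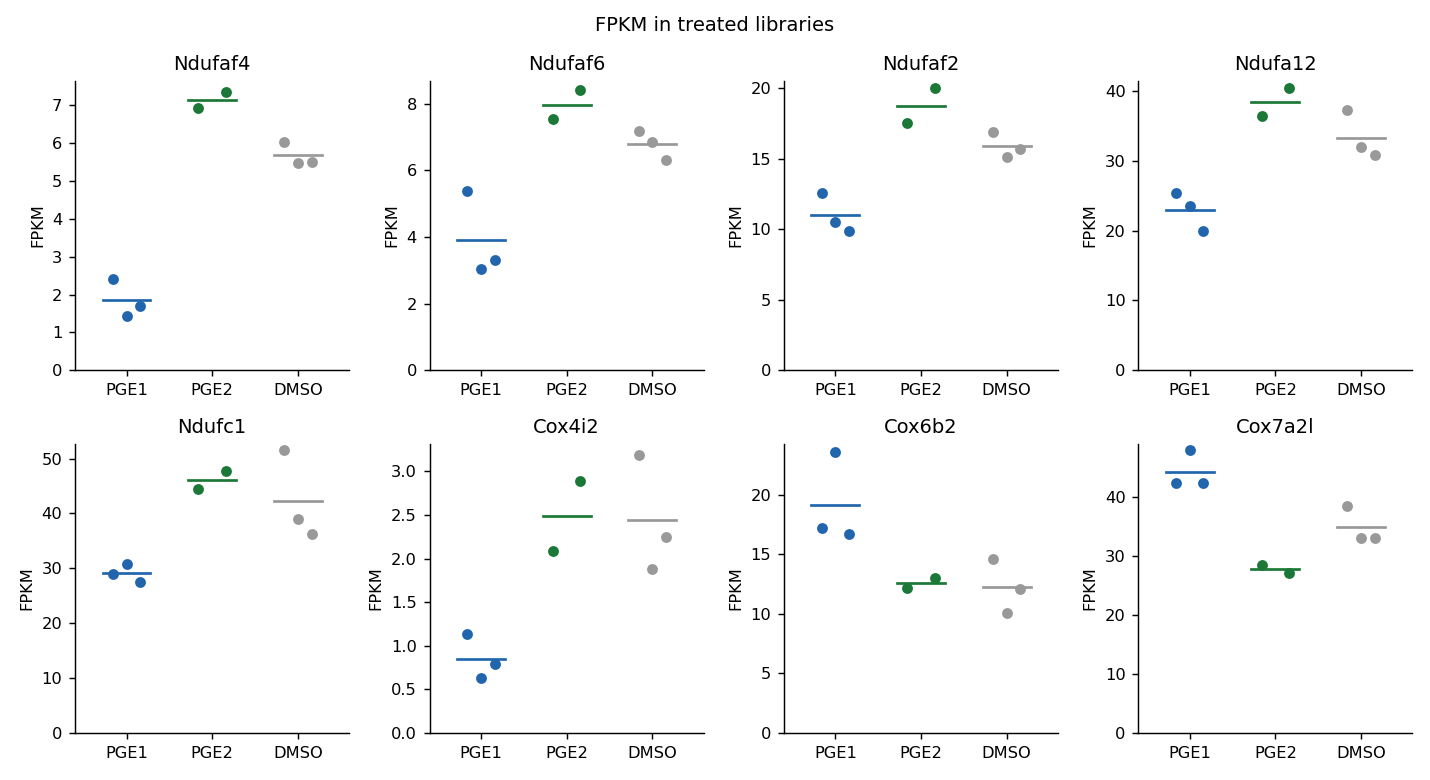
FPKM (y axes, from 0) of 8 genes in libraries treated with PGE1 (n = 3), PGE2 (n = 2) or DMSO (n = 3), with 1 point per library and a bar at each group mean. PGE1 lies below both other groups for Ndufaf4, Ndufaf6, Ndufaf2, Ndufa12, Ndufc1 and Cox4i2, and above both for Cox6b2 and Cox7a2l.

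After 6 h with the vehicle alone, control LSCs had lower levels of most of the genes than untreated WT LSCs. Of 87 genes, 70 were lower and 2 higher after DMSO (80.5% and 2.3%), against 30.7% lower and 26.0% higher of 11115 genes tested. The median log2 difference was -0.30 over the 87 genes and -0.03 over all genes, and the summed level was 6867, 5873 and 5835 FPKM after DMSO, against 7582, 7675 and 7597 FPKM in WT. The treated libraries were also the shallower ones, so vehicle treatment and sequencing depth cannot be told apart here. Each complex took part: 30 of 36 genes of complex I, 4 of 4 of complex II, 8 of 8 of complex III, 11 of 16 of complex IV, 12 of 14 of complex V and 5 of 9 assembly factors were lower. With the length trend removed 65 were lower and 3 higher, and leaving out any library left 57 to 78 lower. The share of all genes tested is not given for these counts.

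Cox6a2 had the largest fall, with 3.73, 2.54 and 3.12 FPKM after DMSO, against 6.56, 7.48 and 6.5 FPKM in WT (log2 difference -0.93 ± 0.11, adjusted p = 0.000205). Ndufaf2 had 16.9, 15.1 and 15.7 FPKM after DMSO, against 24.4, 21.8 and 23.9 FPKM in WT (-0.53 ± 0.06, adjusted p = 0.00019). Atp5c1 had 46.9, 43.9 and 43.8 FPKM after DMSO, against 63.1, 63.3 and 62.6 FPKM in WT (-0.48 ± 0.04, adjusted p = 4.84e-05). In these genes no DMSO library reached a WT library. Atp5g1, Ndufa12 and Ndufb2 (each -0.48), Ndufb3 and Ndufaf4 (each -0.45) followed. All 4 Sdh genes fell, Sdhd most (73.7 ± 3.04 FPKM after DMSO and 91.7 ± 2.42 FPKM in WT, SD, n = 3 each; adjusted p = 0.000652) and Sdhb least (58.1 ± 3.77 FPKM after DMSO and 65.5 ± 1.46 FPKM in WT, adjusted p = 0.0231). Cox7a1 went the other way, with 3.67, 3.61 and 3.57 FPKM after DMSO, against 1.76, 1.96 and 1.32 FPKM in WT (0.79 ± 0.1, adjusted p = 0.000256). Cox7a2l had 38.5, 33.1 and 33.0 FPKM after DMSO, against 30.8, 30.2 and 30.6 FPKM in WT (0.18 ± 0.06, adjusted p = 0.0343). Leaving out WT replicate 1 (0.0798), WT replicate 2 (0.0977) or WT replicate 3 (0.0841) ended that call. Of the marker lists, 2 monocyte markers were higher and 1 lower, and 2 neutrophil markers higher and 3 lower after DMSO. The erythroid marker Hbb-b1, the megakaryocyte marker Itga2b and the sorted marker Ly6a were higher after DMSO, and the lymphoid marker Nkg7 and the sorted marker Cd34 were lower. The part of these markers in the result was not tested.

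**Figure D4:**
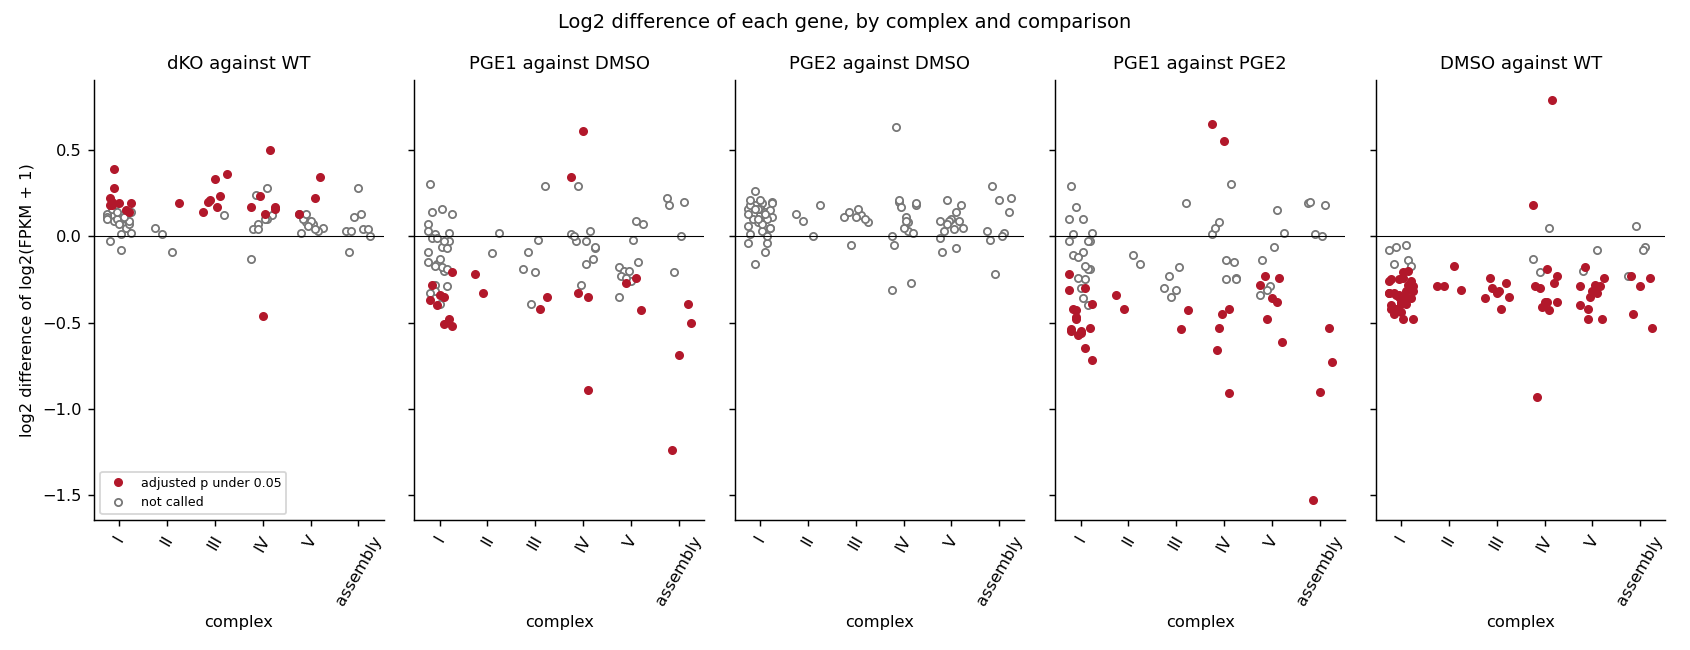
Log2 difference of log2(FPKM + 1) (y axis) of each of the 87 genes, by complex (x axis), in 5 comparisons, filled where adjusted p was under 0.05 and open where it was not. Calls lie above 0 in dKO against WT except Cox6b2, and mostly below 0 in PGE1 against DMSO, PGE1 against PGE2 and DMSO against WT, and there are none in PGE2 against DMSO.

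The comparison of dKO with WT and that of PGE1 with DMSO share no library. Of the genes higher in dKO, 7 were also lower after PGE1, which is 25.9% of the 27 higher in dKO and 30.4% of the 23 lower after PGE1. Of all 87 genes 26.4% were lower after PGE1, and of all genes tested 25.5%, so the share among those higher in dKO is near the background. The 7 were Atp5b, Atp5g1, Ndufa12, Ndufb3, Ndufb6, Uqcr11 and Uqcrc1. Cox6b2 was lower in dKO and higher after PGE1.

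For subunits 4, 6a and 6b of complex IV and the c subunit of complex V, 1 form was the highest in every library, which did not hold for the subunit 7a family. Cox4i1 stood at 332 to 484 FPKM over the 14 libraries and Cox4i2 at 0.634 to 4 FPKM. Cox6a1 ranged from 241 to 349 FPKM and Cox6a2 from 2.17 to 11.5 FPKM, and Cox6b1 from 118 to 211 FPKM and Cox6b2 from 9.32 to 23.6 FPKM. The broadly expressed form was thus above the tissue-restricted one with no overlap in all 3 pairs. Cox7a2 ranged from 41.5 to 101 FPKM, Cox7a2l from 25.6 to 48.0 FPKM and Cox7a1 from 1.32 to 4.47 FPKM. After PGE1, Cox7a2l had 42.4, 48.0 and 42.4 FPKM and Cox7a2 had 49.5, 64.5 and 41.5 FPKM, so Cox7a2l was the higher in replicate 3. The 3 genes that encode the same c subunit of complex V were led by Atp5g3 at 176 to 340.1 FPKM, with Atp5g1 at 7.56 to 23.1 FPKM and Atp5g2 at 0.274 to 1.36 FPKM. Cox8a averaged 279.8 FPKM while Cox8b and Cox8c were at or near 0, and Ndufa4, now counted as a complex IV subunit, averaged 182 FPKM against 0.254 FPKM for its paralog Ndufa4l2.

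**Figure D5:**
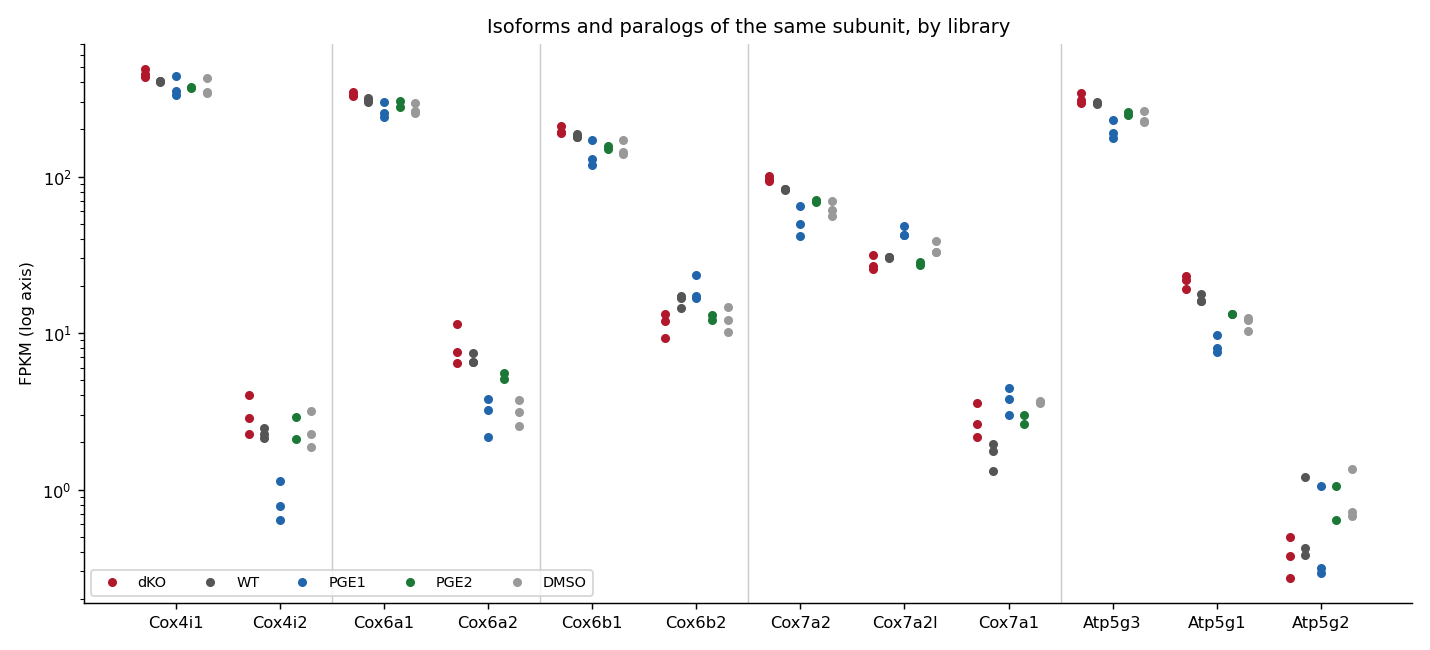
FPKM on a log axis (y) of isoforms and paralogs of the same subunit (x), with 1 point per library and colours for dKO, WT, PGE1, PGE2 and DMSO, and grey lines between subunits. Cox4i1, Cox6a1, Cox6b1 and Atp5g3 lie above their partners in every library, and Cox7a2 and Cox7a2l come close after PGE1.

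Genes of neighbouring pathways were counted in the same fits. The tricarboxylic acid cycle with pyruvate dehydrogenase feeds NADH and succinate to the chain, and 11 of its 17 genes rose in dKO and none fell, while 8 of 17 fell after PGE1 and none rose. Over all genes tested, 18.0% were higher and 22.9% lower in dKO, and 25.5% were lower and 23.6% higher after PGE1. After PGE2 none of the 17 was called by limma, and 14 were lower after DMSO than in WT (30.7% of all genes tested). Idh3a, the catalytic subunit of NAD-dependent isocitrate dehydrogenase, averaged 62.6 ± 1.04 FPKM in dKO and 50.7 ± 0.533 FPKM in WT (log2 difference 0.30 ± 0.03, adjusted p = 0.000368). It averaged 15.4 ± 4.22 FPKM after PGE1 and 32.6 ± 1.97 FPKM after DMSO (SD, n = 3 each; -1.06 ± 0.15, adjusted p = 0.000484). Pdha1 and Cs rose in dKO by 0.22 and 0.19, and Suclg1, Dlat and Dlst fell after PGE1 by 0.54, 0.44 and 0.28.

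Of 8 respiratory chain genes outside the prefixes, 7 were tested. In dKO, Usmg5 (an ATP synthase subunit) and Cyc1 rose and none fell, and after PGE1 2 of the 7 fell and 1 rose, numbers too small to set against the shares of all genes. After PGE1, Etfb, a subunit of the flavoprotein that hands electrons from fatty acid oxidation to ubiquinone, averaged 72.5 ± 11.1 FPKM, against 134 ± 18 FPKM after DMSO (SD, n = 3 each; log2 difference -0.88 ± 0.13, adjusted p = 0.000552). Cyc1 fell as well, by 0.29. Etfdh, which takes over the electrons from that flavoprotein, went the other way, at 22.4 ± 1.81 FPKM after PGE1 and 16.3 ± 0.796 FPKM after DMSO (adjusted p = 0.00125).

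Of 10 nuclear regulators of these genes, 9 were tested and 4 fell after PGE1, where 25.5% of all genes tested fell, and 1 rose in dKO, where 18.0% did. Pprc1, a coactivator of the PGC-1 family, averaged 4.21 ± 0.853 FPKM after PGE1 and 11.2 ± 0.902 FPKM after DMSO (SD, n = 3 each; log2 difference -1.23 ± 0.12, adjusted p = 6.61e-05), and 11.5 ± 0.291 FPKM after PGE2 (n = 2). Ppargc1b, another coactivator of the family, averaged 0.519 ± 0.167 FPKM after PGE1 and 1.57 ± 0.173 FPKM after DMSO (-0.76 ± 0.11, adjusted p = 0.000632). The nuclear receptor Esrra fell by 0.40 and the factor Nrf1 by 0.18. In dKO 1 of the 9 was called: Esrra averaged 18.9 ± 1.17 FPKM in dKO, against 16.6 ± 0.428 FPKM in WT (SD, n = 3 each; adjusted p = 0.0349), and Pprc1 averaged 12.1 ± 1.08 FPKM in dKO and 12.0 ± 0.222 FPKM in WT (adjusted p = 0.923).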

How the data were processed

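RNA from sorted mouse LSCs was sequenced on Illumina libraries, per the labels' protocols. Tools named in the submitters' processing notes are CASAVA 1.8, TopHat and Cufflinks, with mm9 as build; the sources used here do not give strand handling or annotation. The authors deposited FPKM for 24463 gene symbols, 1 file per library, with no further scaling recorded, so a library's composition and length bias stay in the values. In 100% of 19057 genes with reads the FPKM steps gave whole reads (within 0.0001 of a read), of which 59.0% to 61.1% of each library lay in genes.

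Differences were tested on log2(FPKM + 1), with both sides counted, by limma 3.58.1 (lmFit and trended eBayes, R 4.3.3). Genes averaging 1 FPKM or more in the fitted libraries entered, and p-values were adjusted over all of these by Benjamini and Hochberg, with 0.05 as threshold. The log2(FPKM + 1) scale understates changes of low genes. The 3 fits held dKO with WT, the 8 treated libraries, and DMSO with WT. The code was tested on simulated reads. Named were, per comparison, up to 8 largest rises and 8 largest falls among called genes, the Sdh genes, isoform pairs and the highest and lowest genes; in related lists, up to 4 called genes with the smallest p; genes summarised by range lie outside that rule. The genes and lists were chosen with earlier results of these data known. Alternatives were pseudocount 0.1, no filter, a 5 FPKM minimum, median-of-ratios and quantile scaling, voom on recovered reads, a replicate block, removal of the length trend, and leaving out libraries. Pseudogene copies were searched with BLAST+ 2.17.0 and figures drawn with matplotlib 3.10.9 in Python 3.11.15. Promoter coordinates are of GRCm38.p6, a later build than that of the files.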

Additional observations from a re-analysis of the deposited data

How the results depend on the processing

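Counts of genes called are given as higher and lower. A change of setting or libraries can also change the share of all genes called. These counts are therefore not to be set against the shares of the main fits. With no filter on low values, 17 were higher in dKO than in WT (27 as reported), 1 was higher after PGE1 than after PGE2 and 1 higher after DMSO than in WT, where more genes are tested; a minimum of 5 FPKM also gave 1 for the last. Median-of-ratios scaling gave 44 higher in dKO. Quantile normalization gave 4 lower in dKO, 6 higher after PGE1 than after DMSO, 1 lower after PGE2 than after DMSO and 5 higher after PGE1 than after PGE2. Removing the length trend (chosen after seeing the data) gave 2 lower in dKO, 9 higher after PGE1 than after DMSO, 2 higher and 1 lower after PGE2 than after DMSO, and 6 higher after PGE1 than after PGE2. Leaving out DMSO replicate 1 and PGE1 replicate 2 together (also chosen later) gave 5 higher and 46 lower for PGE1 against DMSO, 18 higher and 1 lower for PGE2 against DMSO, and 65 lower for PGE1 against PGE2. The cause of these moves was not tested.

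Leaving out each library in turn gave 13 to 46 higher and 0 to 2 lower for dKO against WT, 2 to 3 higher and 11 to 48 lower for PGE1 against DMSO, 0 to 1 higher and 0 to 1 lower for PGE2 against DMSO, 1 to 3 higher and 15 to 59 lower for PGE1 against PGE2, and 1 to 2 higher and 57 to 78 lower for DMSO against WT.

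Deviations of same-numbered libraries correlated at 0.03, 0.12 and 0.01 for dKO with WT and at -0.16, -0.27 and 0.26 for PGE1 with DMSO. In the other comparisons the correlations were -0.08 to 0.06. With 2 or 3 libraries per group, these values cannot decide whether replicate numbers pair the samples. A replicate block gave 22 higher and 1 lower in dKO, 2 and 24 for PGE1 against DMSO, 0 and 0 for PGE2 against DMSO, 2 and 26 for PGE1 against PGE2, and 2 and 71 for DMSO against WT. Of 39 results on single genes named for their size, 33 passed in every alternative in which they were tested and 0 reversed; the exceptions were Cox7a1, Cox6b2 (in 2 comparisons), Ndufb4, Cox6a2 and Cox7a2l. Genes under about 3 FPKM rest on few reads, down to 9 in a library.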

Other observations

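Of 9 tested genes that maintain mitochondrial DNA, 4 were higher and 1 lower in dKO than in WT, where 18.0% of all genes tested were higher and 22.9% lower. Tfam, which packages and transcribes mitochondrial DNA, averaged 12.1 ± 0.721 FPKM in dKO and 10.2 ± 0.293 FPKM in WT, and the protease Lonp1 averaged 91.5 ± 6.58 FPKM in dKO and 73.5 ± 4.36 FPKM in WT (SD, n = 3 each; adjusted p of 0.0125 and 0.00646). After PGE1, 3 fell and 1 rose, where 25.5% of all genes tested fell and 23.6% rose. Peo1, the Twinkle helicase, averaged 3.64 ± 0.252 FPKM after PGE1 and 5.92 ± 0.208 FPKM after DMSO (adjusted p = 0.000297). Polg2, the accessory subunit of the mitochondrial DNA polymerase, went the other way from the rest of the called genes of the list in each of these comparisons. It averaged 1.86 ± 0.2 FPKM in dKO, against 2.69 ± 0.208 FPKM in WT, and 6.51 ± 0.726 FPKM after PGE1, against 4.12 ± 0.716 FPKM after DMSO (adjusted p of 0.00902 and 0.00548).

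Of 23 tested assembly factors outside the prefixes, 1 rose in dKO (Atpaf2, with 20.3 ± 1.07 FPKM in dKO, against 16.7 ± 0.89 FPKM in WT, adjusted p = 0.00682) and 5 fell after PGE1. Both shares lie below those of all genes tested, 18.0% higher in dKO and 25.5% lower after PGE1. Ecsit, which helps to assemble complex I, averaged 7.71 ± 0.546 FPKM after PGE1 and 12.9 ± 0.69 FPKM after DMSO (SD, n = 3 each; adjusted p = 0.00012), and its partner Acad9 averaged 6.03 ± 0.396 FPKM after PGE1 and 8.06 ± 0.0602 FPKM after DMSO (adjusted p = 0.0026). Cox10, which makes the heme A precursor of complex IV, averaged 5.19 ± 0.405 FPKM after PGE1 and 7.37 ± 0.128 FPKM after DMSO (adjusted p = 0.00119).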
